A study of Homo sapiens with 6 samples.

Results

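The 10 genes examined here set the passage from G1 into S phase, and they were followed in MDA-MB-231, an established line from a human triple-negative breast cancer, after treatment with the peptide PDBAG1.
They were chosen by name, as the D and E cyclins, the D cyclin kinases, the inhibitor CDKN1B, the retinoblastoma gene RB1 and the transcription factor E2F1, and all 10 were found among the 17631 genes with a value. These genes and the lists used below were chosen with earlier results of these data known. RNA sequencing covered 6 libraries, 3 from cells given vehicle and 3 from cells given 30 µM PDBAG1, all taken at 24 h from the same unmodified line. PDBAG1 was studied as an inhibitor of C1QBP, a protein found largely in mitochondria. The labels describe the source both as breast cancer tissue and as MDA-MB-231. They do not say whether the 3 libraries of a group came from separate cultures, so the spread between libraries behind the p values may be technical.

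In the G1 phase, D cyclins bind CDK4 or CDK6, and E cyclins bind CDK2. These kinases phosphorylate the RB1 protein, which otherwise holds the E2F factors in check. Released E2F1 then switches on genes of DNA replication together with its own gene and those of the E cyclins, while CDKN1B (p27) and CDKN1A (p21) restrain the kinases.

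Values are TPM, transcript abundances scaled to a common library sum and corrected for transcript length, which can therefore be compared between genes. TPM holds no information on read depth. Precision was therefore judged from the spread between libraries, in the gene tests pooled in part over all genes tested. Between 12392 and 12611 genes per library reached a TPM of 1, and no library stood apart from its group, since log2 differences between pairs of libraries had a standard deviation of 0.14 to 0.18 where the treatment was shared and of 0.28 to 0.30 where it was not. The line's mesenchymal markers VIM, CD44 and FOSL1 summed to 4989.6 to 5128 TPM with vehicle and 6818 to 6968 TPM with PDBAG1, and all 3 were higher with PDBAG1 at the threshold used below. The epithelial and luminal markers ESR1, PGR, GATA3, CDH1 and EPCAM summed to 10.6 to 12.7 and 10.8 to 13.6 TPM. Immune markers (PTPRC and CD79A) stayed at or below 1.84 TPM in sum. Endothelial markers (PECAM1, VWF and CDH5) went from 4.11 to 4.40 TPM with vehicle to 8.42 to 9.60 TPM with PDBAG1, through PECAM1, while VWF lay at 0.09 TPM or less. Fibroblast markers (LUM, PDGFRB and COL1A1) summed to 5.51 to 5.96 and 6.72 to 7.43 TPM. The part of these marker differences in the results below was not tested. In bulk RNA, fewer cells in a given cell cycle phase and less of a transcript per cell cannot be told apart.

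The E cyclins, E2F1 and CDK4 fell with PDBAG1, CCND1 fell slightly, and CCND2, CCND3, CDK6, CDKN1B and RB1 did not pass the test. PDBAG1 libraries were lower for 5 of the 10 genes at an adjusted p under 0.05 in limma, against 15.9% of the 12582 genes tested. None was higher at that threshold or at an unadjusted p under 0.05 in limma, the tool used for this comparison, against 21.7% of all genes called higher. In the same 5 genes the 3 PDBAG1 values all lay below the 3 vehicle values, a separation found in 20.2% of all genes tested. Only CCNE2 also passed a 1.5-fold limit, which 0.477% of all genes passed downwards and 2.86% upwards. The median log2 fold change of the 10 genes was -0.08, and that of all genes tested was 0.03. Since the 10 genes were chosen with earlier results known, these comparisons with all genes are descriptions and not tests. Quantile normalization turned the split of all calls from 2736 higher and 2000 lower into 2404 higher and 2742 lower.

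**Figure D1:**
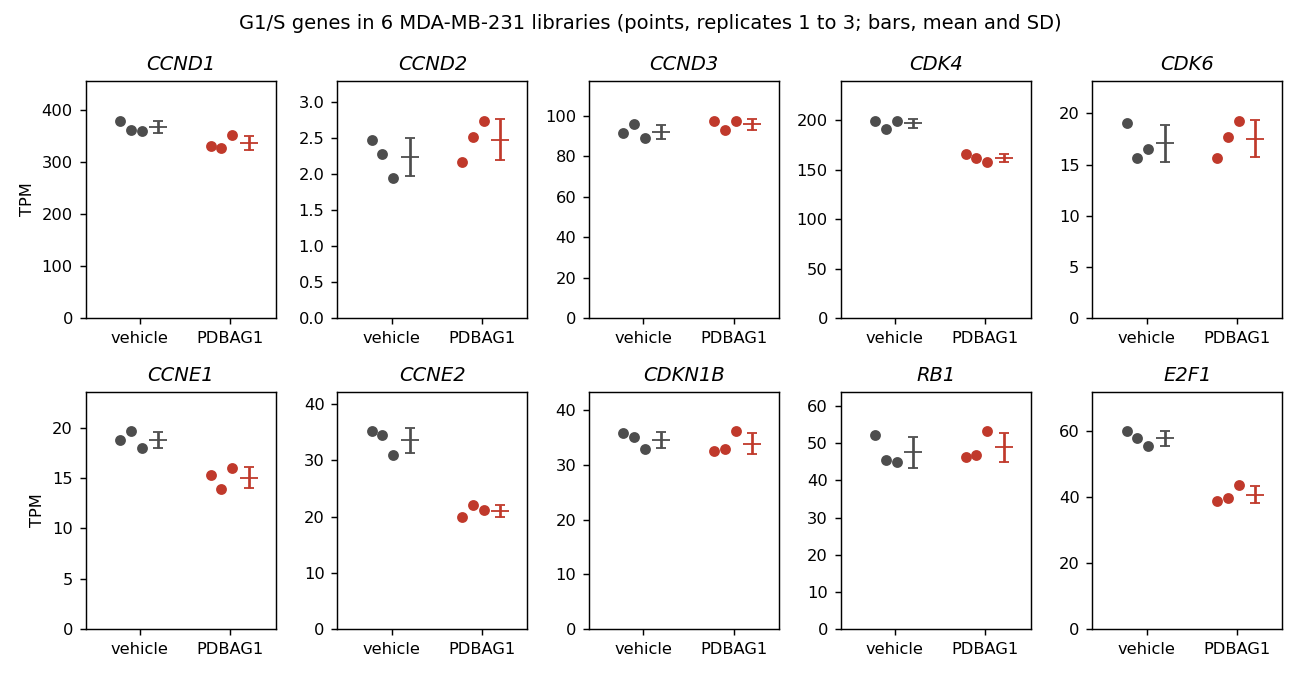
TPM of the 10 genes in each library, on linear axes that start at 0, with vehicle in grey and PDBAG1 in red. Points are replicates 1 to 3 and bars give the mean and SD; the PDBAG1 points of CCND1, CDK4, CCNE1, CCNE2 and E2F1 lie below all vehicle points, and those of the other 5 genes overlap with vehicle.

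**Figure D2:**
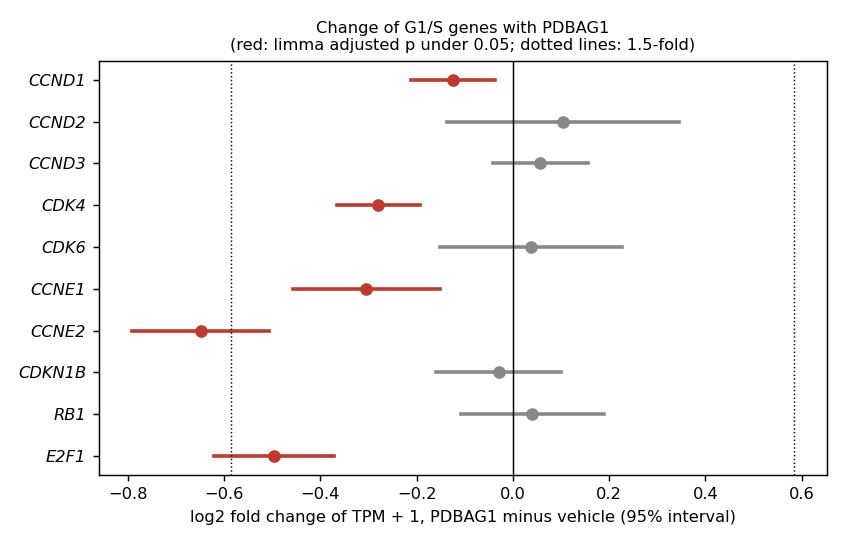
Log2 fold change of TPM + 1 with its 95% interval from limma, PDBAG1 minus vehicle, for the 10 genes; dotted lines mark a 1.5-fold change. CCNE2 (-0.65) lies furthest from 0, followed by E2F1 (-0.50), CCNE1 (-0.30), CDK4 (-0.28) and CCND1 (-0.12), all in red, and the 5 grey intervals include 0.

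Mean levels with vehicle ran from 2.23 TPM to 367 TPM. Their order was CCND1, CDK4, CCND3, E2F1, RB1, CDKN1B, CCNE2, CCNE1, CDK6 and CCND2. The ranges of CDKN1B and CCNE2 overlapped, as did those of CCNE1 and CDK6, and all other neighbours were separate. With PDBAG1, RB1 moved ahead of E2F1 and CDK6 ahead of CCNE1, the latter pair with overlapping ranges, and CDKN1B was now separate from CCNE2.

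The D cyclins carry growth signals into the cycle, and in this line they were mainly CCND1. CCND1 (chromosome 11, 69641156 to 69654474, GRCh38, GENCODE v44) was at 380, 361 and 361 TPM with vehicle and 332, 327 and 352 TPM with PDBAG1. This placed it in the 97.8th percentile of all genes with vehicle. The highest PDBAG1 library came close to the lowest vehicle libraries without reaching them, and the fall was small, with a log2 fold change of -0.12 (SE 0.04, adjusted p = 0.0264 in limma). The call was lost without vehicle replicate 1 (adjusted p = 0.0941), without PDBAG1 replicate 1 (0.0556) or without PDBAG1 replicate 2 (0.112), and under 4 other settings named in the closing section. LTO1, whose exons overlap CCND1 on the other strand, had a log2 fold change of -0.08 that did not pass the test.

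CCND3 (chromosome 6, 41934934 to 42050357) was at 91.7, 95.8 and 89.1 TPM with vehicle and 97.7, 92.8 and 97.3 TPM with PDBAG1. The groups overlapped, and the log2 fold change was 0.06 with a 95% interval of -0.04 to 0.16. CCND2 (chromosome 12, 4269771 to 4305353), the D cyclin with the lowest level here, was at 2.47, 2.27 and 1.95 TPM with vehicle and 2.17, 2.51 and 2.74 TPM with PDBAG1. Its log2 fold change of 0.10 had a 95% interval of -0.14 to 0.35, the widest among the 10 genes, and its exons overlap other annotated transcripts on both strands.

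The mix of D cyclins shifted little. Summed TPM of the 3 D cyclins was 474, 459 and 452 with vehicle and 432, 422 and 453 with PDBAG1, and the groups overlapped. CCND1 made up 80.2%, 78.7% and 79.8% of the sum with vehicle and 76.9%, 77.4% and 77.9% with PDBAG1, and CCND3 19.3% to 20.9% and 21.5% to 22.6%. CCND2 stayed under 1% in every library. The log2 ratio of CCND1 to CCND3 within a library, taken on TPM + 1, depends little on scaling between libraries. This ratio fell by 0.18 from 1.98 ± 0.07 to 1.80 ± 0.05 (SD, n = 3 each; two-sided exact permutation test, p = 0.1, adjusted p = 0.15 over the 3 paralogue pairs tested). An exact test of 3 against 3 libraries cannot give a p below 0.1.

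Of the kinases that D cyclins activate, CDK4 fell and CDK6 did not pass the test. CDK4 (chromosome 12, 57747727 to 57756013) was at 200, 191 and 200 TPM with vehicle and 166, 162 and 158 TPM with PDBAG1. All PDBAG1 libraries lay well below all vehicle libraries, at 0.823 times the vehicle mean, with a log2 fold change of -0.28 (SE 0.04, adjusted p = 0.000119 in limma). TSPAN31, whose exons overlap those of CDK4 on the opposite strand, moved the other way, from 13.8 ± 1.02 to 16.6 ± 1.82 TPM (mean ± SD, n = 3 each), with a log2 change of 0.25 with an adjusted p of 0.0346 in limma. Whether the counting used strand is not given in the sources used here, so reads shared by the pair cannot be assigned.

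CDK6 (chromosome 7, 92604921 to 92836573) was at 19.1, 15.6 and 16.5 TPM with vehicle and 15.7, 17.7 and 19.3 TPM with PDBAG1, with groups that overlapped fully. Its log2 fold change was 0.04, with a 95% interval of -0.15 to 0.23, and turned to -0.03 under quantile normalization. CDK4 made up 91.3% to 92.5% of the summed TPM of the pair with vehicle and 89.1% to 91.4% with PDBAG1. The log2 ratio of CDK4 to CDK6 was 3.46 ± 0.12 with vehicle and 3.14 ± 0.18 with PDBAG1 (mean ± SD, n = 3 each), with groups that overlapped (two-sided exact permutation test, p = 0.2, adjusted p = 0.2).

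CDK4 is known as a target of MYC, which binds the letters CACGTG, so the stretch before its start is shown. MYC itself measured 92.6 ± 0.698 TPM in vehicle libraries and 88.6 ± 2.38 TPM in PDBAG1 libraries (mean ± SD, n = 3 each) and did not pass the test (adjusted p = 0.274 in limma). In RefSeq's promoter table for GRCh38.p14, which held 10 starts for 7 of the 10 genes and none for CCND1, CCND2 or CCNE2, the 250 bases before a start held CACGTG in 6.34% of 35116 starts and 3 or more copies in 0.0797%. CDK4 had 3 copies, with last bases 211, 191 and 96 bases before the start, and no other of the 7 genes had any. The CDK4 start lies inside the gene as GENCODE gives it, as do the starts held for RB1, CDKN1B and CCND3. The stretch from chr12:57752448-57752560, minus strand, holds 2 of the copies in capitals and ends where an exon of a longer transcript in GENCODE begins.
CDK4: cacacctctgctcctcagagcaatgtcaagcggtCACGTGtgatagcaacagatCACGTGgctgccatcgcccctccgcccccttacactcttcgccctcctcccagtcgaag
A match of letters is a description and says nothing of binding in these cells.

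The E cyclins, which drive CDK2 at the entry into S phase, fell together. CCNE2 (chromosome 8, 94879770 to 94896678) was at 35.2, 34.5 and 31.0 TPM with vehicle and 19.8, 22.0 and 21.2 TPM with PDBAG1. The groups were far apart relative to their spread, and CCNE2 reached 0.627 times the vehicle mean with a log2 fold change of -0.65 (SE 0.07, adjusted p = 6.30e-06 in limma), the 324th largest change in either direction among the 12582 genes. INTS8, whose exons overlap CCNE2 on the opposite strand, was at 23.4 ± 1.43 and 22.9 ± 1.25 TPM (mean ± SD, n = 3 each) and did not pass the test.

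CCNE1 (chromosome 19, 29811991 to 29824312) was at 18.7, 19.6 and 18.0 TPM with vehicle and 15.3, 13.9 and 15.9 TPM with PDBAG1. It too fell without overlap, by 0.30 on the log2 scale (SE 0.07, adjusted p = 0.00436 in limma), to 0.800 times the vehicle mean. Summed TPM of both E cyclins dropped from 53.9, 54.1 and 49.0 with vehicle to 35.1, 36.0 and 37.1 with PDBAG1. The share of CCNE1 in that sum was 34.7%, 36.3% and 36.7% with vehicle and 43.5%, 38.7% and 42.9% with PDBAG1, so the balance moved towards CCNE1 although both genes fell. The log2 ratio of CCNE1 to CCNE2 went from -0.80 ± 0.06 to -0.46 ± 0.15 (mean ± SD, n = 3 each), a difference of 0.34 without overlap (two-sided exact permutation test, p = 0.1, the smallest possible, adjusted p = 0.15).

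Over the 6 libraries, the profiles most like that of CCNE2 among 10339 genes with an average of 5 TPM or more were those of RBM24, MORC4 and CCT4, each with a Pearson r of 0.996 on log2(TPM + 1). RBM24, which encodes an RNA-binding protein, fell from 29.2 ± 2.43 to 19.1 ± 0.558 TPM, and CCT4, a subunit of the chaperonin that folds actin and tubulin, from 254 ± 3.50 to 215 ± 5.81 TPM (mean ± SD, n = 3 each). MORC4 was at 18.6 ± 0.711 and 15.0 ± 0.592 TPM. The libraries form 2 groups, so such values mostly reflect the step between treatments, and 503 of these genes had an r above 0.95.

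CDKN1B and RB1, the brakes among the 10 genes, showed no difference beyond the replicate error. CDKN1B (chromosome 12, 12685498 to 12722369) was at 35.9, 35.1 and 33.0 TPM with vehicle and 32.6, 33.0 and 36.2 TPM with PDBAG1. The log2 fold change was -0.03 with a 95% interval of -0.16 to 0.10. RB1 (chromosome 13, 48303744 to 48599436) was at 52.3, 45.4 and 44.9 TPM with vehicle and 46.4, 47.0 and 53.3 TPM with PDBAG1, with a log2 fold change of 0.04 and a 95% interval of -0.11 to 0.19. In both genes 1 library of each group lay apart from the other two, and the ranges of the groups overlapped almost completely.

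Some relatives of these brakes changed, and others did not pass the test. CDKN1A, which encodes p21, was at 50.8, 50.8 and 50.7 TPM with vehicle and 115, 114 and 111 TPM with PDBAG1. This was the larger of the 2 rises in the list of other CDK inhibitors, with a log2 fold change of 1.14 (SE 0.04, adjusted p = 4.38e-10 in limma). CDKN1C (p57) rose from 10.5 ± 1.03 to 17.6 ± 0.170 TPM, and CDKN2C (p18), an inhibitor of CDK4 and CDK6, fell from 57.7 ± 2.41 to 48.5 ± 4.86 TPM (mean ± SD, n = 3 each). CDKN1B therefore made up 35.0% to 37.3% of the summed TPM of CDKN1A, CDKN1B and CDKN1C with vehicle and 19.8% to 22.0% with PDBAG1, while the sum itself went from 94.3 to 97.3 TPM to 164 to 165 TPM. CDKN2A, which this line is known to have lost, was listed at 0.45 to 1.38 TPM with vehicle and 0.72 to 1.57 TPM with PDBAG1, and CDKN2B at 0.03 TPM or less in every library. Of the 6 inhibitors in the list, 5 were tested, 2 rose, 1 fell and 2 did not pass the test. Calls over all genes tested were 21.7% higher and 15.9% lower.

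Among the pocket proteins, which share the E2F-binding fold of RB1, RBL1 (p107) was at 37.4, 34.5 and 35.7 TPM with vehicle and 28.7, 32.6 and 32.8 TPM with PDBAG1. It was lower with a log2 fold change of -0.19 with an adjusted p of 0.0305 in limma, a call lost without vehicle replicate 1 (0.0886), vehicle replicate 3 (0.0778) or PDBAG1 replicate 1 (0.113). It was also lost with the replicate number as a block (adjusted p = 0.0669 in limma), without the expression filter (0.0614) and without the variance trend (0.0615). RBL2 (p130) was at 17.7 ± 1.29 and 19.9 ± 1.78 TPM (mean ± SD, n = 3 each) and did not pass the test (adjusted p = 0.123). RB1 accounted for 46.3% to 48.2% of the summed TPM of the 3 pocket protein genes with vehicle and 47.7% to 49.5% with PDBAG1.

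E2F1 (chromosome 20, 33675477 to 33686385), the activator at the end of this chain, fell in every PDBAG1 library. It was at 60.1, 58.2 and 55.5 TPM with vehicle and 38.8, 39.8 and 43.8 TPM with PDBAG1. The gap between the groups exceeded the range within either, and E2F1 reached 0.705 times the vehicle mean with a log2 fold change of -0.50 (SE 0.06, adjusted p = 1.92e-05 in limma). E2F1 is known to be driven by E2F factors themselves, and the 250 bases before its start (chr20:33686386-33686635, minus strand, RefSeq, GRCh38.p14) are shown with such letters in capitals.
E2F1: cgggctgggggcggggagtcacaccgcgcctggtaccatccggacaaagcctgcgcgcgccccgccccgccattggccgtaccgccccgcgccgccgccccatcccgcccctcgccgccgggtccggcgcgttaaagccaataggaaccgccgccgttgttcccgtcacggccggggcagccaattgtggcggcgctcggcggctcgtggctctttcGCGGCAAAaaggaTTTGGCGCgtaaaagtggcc
The letters searched on both strands were TTTCCCGC, TTTCGCGC, TTTGCCGC and TTTGGCGC. E2F1 held TTTGCCGC on the opposite strand, ending 26 bases before the start, and TTTGGCGC on its own strand, ending 13 bases before it. At least 1 match was found in 2.79% of the 35116 starts and 2 or more in 0.122%. Of the 7 genes with an entry, E2F1 alone had a match, CCNE1 included among those without. The RB1 entry lies inside the gene, far from the start given in GENCODE, and draws no comparison. The entries of CDKN1B, CDK4 and CCND3, and an entry of CDK6, also lie inside the gene as GENCODE gives it. The stretches before the GENCODE starts of RB1, CDKN1B, CDK4 and CCND3 were not searched.

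E2F2, E2F4, E2F5 and E2F8 fell with E2F1, E2F7 rose, and E2F3 and E2F6 did not pass the test. Of 11 genes in the list of other E2F, DP and pocket proteins, 6 fell, 2 rose and 3 did not pass the test. Their median log2 fold change was -0.19, and 15.9% of all genes tested were called lower and 21.7% higher. E2F2 was at 4.36, 4.31 and 4.38 TPM with vehicle and 2.90, 2.78 and 3.39 TPM with PDBAG1, and E2F8, an atypical repressor, fell from 18.7 ± 1.06 to 13.0 ± 1.40 TPM (mean ± SD, n = 3 each). E2F5 fell by 0.31 on the log2 scale, a call lost without PDBAG1 replicate 2 (adjusted p = 0.0509). TFDP1, a dimer partner of the E2Fs chosen here after its value was seen, fell by 0.29 on the log2 scale. E2F7, the other atypical repressor, was at 54.8, 50.4 and 50.1 TPM with vehicle and 61.6, 65.3 and 74.7 TPM with PDBAG1, a log2 fold change of 0.37 (SE 0.07, adjusted p = 0.000763 in limma). The other rise was that of TFDP2, named after its value was seen, at a log2 fold change of 0.20 with a limma adjusted p of 0.0484, which passed in only 1 of the 6 fits that left out a library and not with the block (0.0902), without the filter (0.0924), under quantile normalization (0.0964) or without the trend (0.0642). Among the activator E2Fs, E2F1 made up 65.2% to 66.5% of the summed TPM of E2F1, E2F2 and E2F3 with vehicle and 60.2% to 61.0% with PDBAG1.

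**Figure D3:**
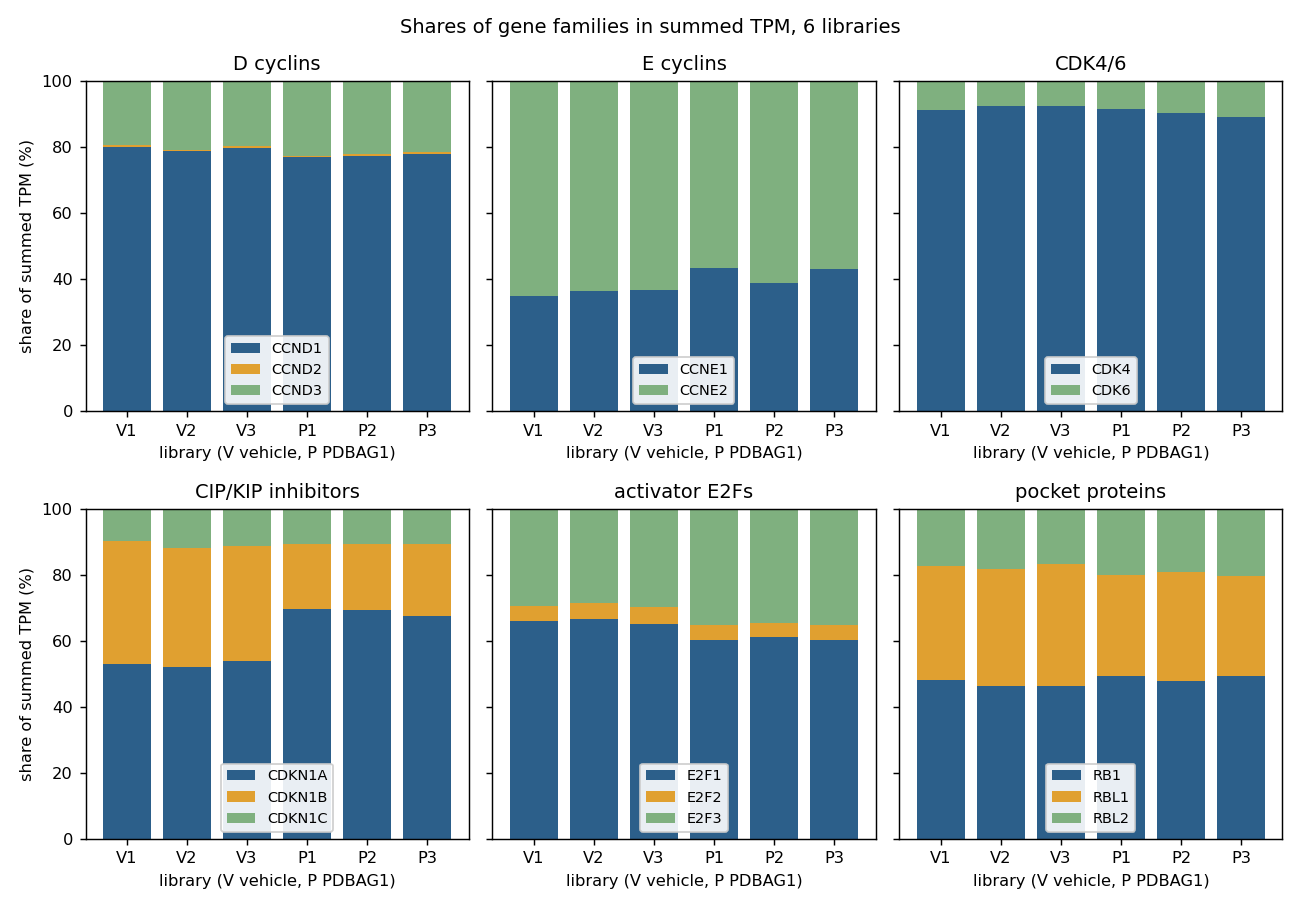
Share of each gene in the summed TPM of its family, in percent, for vehicle libraries V1 to V3 and PDBAG1 libraries P1 to P3; colours mark the genes. CDKN1B takes 35.0% to 37.3% of the CIP/KIP inhibitors with vehicle and 19.8% to 22.0% with PDBAG1, and CCNE1 takes 34.7% to 36.7% and 38.7% to 43.5% of the E cyclins.

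Genes that E2F factors are known to drive in S phase were lower almost throughout. The list was chosen with earlier results of these data known, so its counts are a description and not a test. Of its 25 genes, 24 fell and none rose, against 15.9% of all genes tested called lower and 21.7% higher. Their median log2 fold change was -0.34, and CDT1 (-0.13, adjusted p = 0.156 in limma) was the gene that did not pass. MCM10, needed to start replication forks, fell from 28.3 ± 0.805 to 17.8 ± 1.56 TPM, UHRF1, which maintains DNA methylation, from 58.8 ± 2.44 to 40.1 ± 3.12 TPM, and MCM3, a subunit of the replicative helicase, from 173 ± 7.18 to 122 ± 4.84 TPM (mean ± SD, n = 3 each). GINS2, another helicase component, had the largest fall of the list, with a log2 fold change of -0.77. The log2 fold changes of E2F1 and CCNE2 lay below the median of these genes, and those of CDK4 and CCNE1 above it.

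A list of CDK2, later cyclins and kinases, and their regulators was also mostly lower. Of 13 genes, 7 fell, 1 rose and 5 did not pass the test, with a median of -0.18. Over all genes tested, 15.9% were called lower and 21.7% higher. CDC25A, the phosphatase that activates CDK2, was at 19.4, 17.2 and 17.5 TPM with vehicle and 10.1, 9.84 and 12.1 TPM with PDBAG1, a log2 fold change of -0.70 with an adjusted p of 2.73e-05 in limma. CCNA2 fell from 147 ± 3.24 to 112 ± 5.58 TPM, CCNB1 from 363 ± 3.66 to 292 ± 13.0 TPM and CCNH, the cyclin of the CDK-activating kinase, from 134 ± 4.05 to 103 ± 4.32 TPM (mean ± SD, n = 3 each). CDK7, the kinase partner of CCNH, rose (chosen here with its value in view), with a log2 fold change of 0.16 with an adjusted p of 0.0145 in limma, a call lost without vehicle replicate 2 (0.0750) or vehicle replicate 3 (0.0538), or without the variance trend (0.0544).

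In the machinery that degrades cyclins and CDKN1B, 2 of 14 genes fell, 1 rose and 11 did not pass the test, with a median of -0.05. SKP2, the F-box protein that marks CDKN1B for degradation, was at 34.9, 32.5 and 35.4 TPM with vehicle and 23.1, 22.6 and 24.3 TPM with PDBAG1, a log2 fold change of -0.53 with an adjusted p of 1.40e-05 in limma. CKS1B, its cofactor in that step, fell from 593 ± 13.9 to 498 ± 8.52 TPM. AMBRA1, the substrate receptor known to degrade D cyclins, rose from 9.29 ± 0.541 to 12.1 ± 0.208 TPM (mean ± SD, n = 3 each), with a log2 change of 0.35 with an adjusted p of 0.00218 in limma. Of all genes tested, 15.9% were called lower and 21.7% higher. The share of genes called lower here, 2 of 14, was near that of all genes in the main fit. More genes of this list fell under the scaling alternatives given in the closing section.

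The MuvB complex represses cell cycle genes with pocket proteins and activates them with FOXM1. Its list also held FOXM1 and DYRK1A, which are not subunits of the complex. Of these 7 genes, 4 fell, FOXM1 among them, none rose and 3 did not pass the test, with a median of -0.12. The shares of all genes tested were 15.9% called lower and 21.7% called higher. LIN52 fell from 15.6 ± 0.159 to 11.3 ± 0.686 TPM and RBBP4 from 39.1 ± 1.48 to 33.4 ± 2.05 TPM (mean ± SD, n = 3 each). LIN9 fell by 0.39 on the log2 scale. FOXM1 passed narrowly (log2 fold change -0.12, adjusted p = 0.0492), and that call was lost in 5 of the 6 fits that left out a library. It was also lost with the replicate number as a block (adjusted p = 0.113 in limma), with a pseudocount of 0.1 (0.0512), without the expression filter (0.0595), under quantile normalization (0.0516) and without the variance trend (0.121).

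Among transcription factors known to act on D cyclins and CDKN1B, 7 of 11 genes rose, none fell and 4, MYC among them, did not pass the test. Their median was 0.30. Of all genes tested, 21.7% were called higher and 15.9% lower. EGR1, an immediate early gene, rose from 5.91 ± 0.639 to 14.3 ± 1.41 TPM (mean ± SD, n = 3 each), with a log2 change of 1.14 with an adjusted p of 7.79e-07 in limma. The MYC antagonists MXI1, MXD1 and MNT, which bind MAX in place of MYC, rose by 0.62, 0.51 and 0.45 on the log2 scale. Their PDBAG1 values all lay above the vehicle values, at 19.9 to 21.4 against 11.9 to 13.8 TPM for MXI1.

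Proliferation markers did not move as a block. Of 6 genes, 4 fell, none rose and 2 did not pass the test, with a median of -0.22. Among all genes tested, 15.9% were called lower and 21.7% higher. MKI67, which encodes the Ki-67 antigen, was at 110, 92.1 and 93.5 TPM with vehicle and 84.3, 96.0 and 105 TPM with PDBAG1. These groups overlapped (log2 fold change -0.05, 95% interval -0.22 to 0.11), and the sign turned without vehicle replicate 1 or without PDBAG1 replicate 1 (both 0.03). CENPF, the marker with a positive sign, was at 92.2 ± 14.1 and 98.0 ± 13.9 TPM (mean ± SD, n = 3 each). Its log2 fold change of 0.09 did not pass the test (adjusted p = 0.535 in limma). TOP2A fell from 274 ± 16.7 to 222 ± 19.8 TPM, BUB1 from 128 ± 9.47 to 104 ± 8.42 TPM, AURKB from 206 ± 7.31 to 176 ± 4.13 TPM and BIRC5 from 119 ± 1.42 to 102 ± 1.36 TPM (mean ± SD, n = 3 each).

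**Figure D4:**
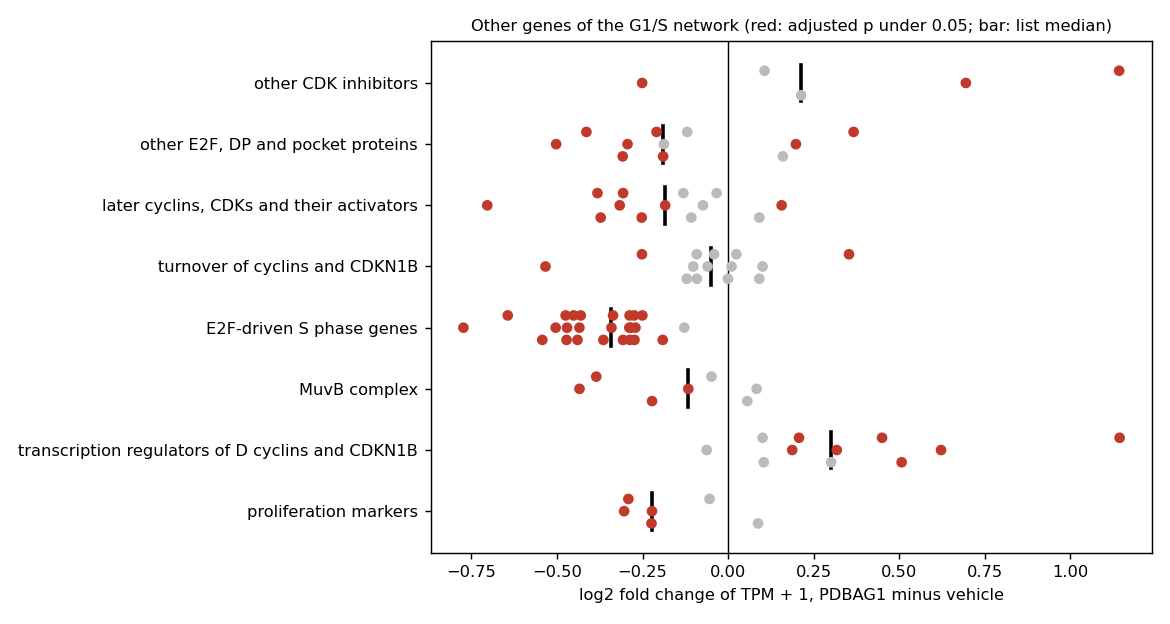
Log2 fold change of TPM + 1, PDBAG1 minus vehicle, for each tested gene of the 8 lists (red, limma adjusted p under 0.05; grey, not passed; black bar, list median; vertical spread within a list has no meaning). The E2F-driven S phase genes lie between -0.77 and -0.13, and CDKN1A and EGR1 lie furthest to the right at 1.14.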

How the data were processed

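MDA-MB-231 libraries, 3 per group, were compared as PDBAG1 against vehicle, with groups taken from the sample titles. According to their methods, the authors ran mRNA libraries on a BGISEQ-500 instrument and mapped reads with HISAT2. The submitters' processing notes name HISAT2 2.0.4, Bowtie2 2.2.5, RSEM 1.2.12 and build GRCh38.p12, whereas the methods name a later patch of GRCh38 and FPKM. The deposited values are TPM, summing to about 1000000 per library, with no counts, so depth is unknown. The annotation and strand setting are not given in the sources used here.

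Genes that reached 1 TPM in any 3 libraries entered the test, on log2(TPM + 1), with limma 3.58.1 (R 4.3.3, lmFit, eBayes with a variance trend), with Benjamini-Hochberg adjustment over 12582 genes and a threshold of 0.05. This scale understates changes of low genes. The fit was tested on simulated data. Ratios were taken on TPM + 1 and tested with scipy 1.17.1. Members and lists were chosen with earlier results of these data known. Named genes were the 10 members, CDKN1A, CDKN2A, RBL1, RBL2, MKI67, up to 4 called, non-overlapping genes per list by size of change, and the 3 genes most like the member with the largest fall; no member rose. Any other gene, such as MYC, CDT1 or an overlapping neighbour, was named after its value was seen. Positions are from GENCODE v44, matched by Ensembl identifier, and promoters from RefSeq. Alternatives covered pseudocount, filter, replicate block, scaling, variance trend, fold limit and left-out libraries. An item of the marker lists is not reported here.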

Additional observations from a re-analysis of the deposited data

How the results depend on the processing

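Only CCNE2 passed the added 1.5-fold limit. Under every other alternative run, the falls of CDK4, CCNE1, CCNE2 and E2F1 kept their direction and stayed past the threshold. CCND1 did not: its log2 fold change was -0.12 without the expression filter (limma adjusted p = 0.0537), -0.12 without the variance trend (0.113) and -0.091 under quantile normalization (0.0757), all past the threshold no longer, and -0.10 to -0.16 with each library left out. In the fit with a replicate block it was -0.12 (0.0534), and 4 members were called; deviations from the group means correlated at only -0.21, 0.01 and -0.08 between libraries of 1 number, so the numbers were not used as pairs. Under the settings that lost CCND1, 4 members remained lower, and with a 1.5-fold limit 1 did, beside 360 genes higher and 60 lower in all. Among results that did not pass, CDK6 turned to -0.033 under quantile normalization and ranged from -0.030 to 0.12 with libraries left out, RB1 from -0.022 to 0.11 and MKI67 from -0.13 to 0.028. In the list of other E2F, DP and pocket proteins 1 gene rather than 2 rose without the filter, with the block, under quantile normalization and without the trend, and 1 to 2 with libraries left out. In the list with CDK2 and later cyclins, 2 genes rose under quantile normalization, 0 without the trend and 0 to 1 with libraries left out. In the turnover list 5 genes fell under median-of-ratios scaling and 4 under quantile normalization, and 1 to 2 rose with libraries left out. The causes were not tested. Depth cannot be judged from TPM, and CCND2, at about 2 TPM, is the least certain member.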

Other observations

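All genes whose symbol marks them as a cyclin or a numbered cyclin-dependent kinase were also listed, a survey added after the data were seen. Of 27 cyclin symbols, 25 were tested, 9 were lower, 4 were higher and 12 did not pass the limma threshold, with a median log2 fold change of -0.01, beside 15.9% of all genes tested called lower and 21.7% called higher. CCNG2, an unconventional cyclin linked to cell cycle arrest, stood out by size. It was at 22.4, 20.7 and 21.4 TPM with vehicle and 49.9, 52.8 and 55.5 TPM with PDBAG1, which is 1.26 higher on the log2 scale (adjusted p = 3.22e-09 in limma), and its groups were far apart. CCNI was at 97.4 ± 5.12 TPM with vehicle and rose to 112 ± 5.25 TPM (SD, n = 3 each), and the splicing-related cyclins CCNL1 and CCNL2 rose by 0.19 and 0.18 on the log2 scale with groups that overlapped. Besides the cyclins described above, CCNF, CCNJ and CCNQ were lower, by 0.28, 0.26 and 0.21 on the log2 scale. Of 19 numbered kinases, 18 were tested, 4 were higher and 4 lower, and 10 did not pass, shares near those of all genes. CDK1, CDK2, CDK4 and CDK10 were lower, and CDK3, CDK7, CDK17 and CDK19 were higher, with CDK3 at 5.41 ± 0.476 and 7.09 ± 0.767 TPM (SD, n = 3 each). The groups overlapped for CDK10 (adjusted p = 0.0495 in limma) and CDK17 (0.0328).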
